A study of Mus musculus with 8 samples.

Results

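The 37 genes described here encode the enzymes that build cholesterol and fatty acids and the proteins that set their expression, in cardiac fibroblasts of the mouse sorted from healing infarcts. They were chosen by gene name, with no threshold on a measured value, from the 54532 genes of a table of FPKM (sequenced fragments per unit of gene length and of sequencing depth), and all 37 were in it. They comprise 7 genes of the mevalonate steps, 11 of the sterol steps, 7 of sterol control and transport, 6 of fatty acid synthesis and 6 of elongation and desaturation of fatty acids. Of them 34 reached 1 FPKM in 4 or more of the 8 libraries, as did 11667 genes in all, and these were tested.

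RNA was sequenced from PDGFRα-positive fibroblasts taken 7 days after coronary occlusion, in 4 libraries labelled FTbR2KO (fibroblast-specific loss of the TGF-β receptor TbR2, encoded by Tgfbr2; numbered 1 to 4) and 4 labelled TbR2fl/fl (mice with the floxed gene; 5 to 8). Tamoxifen had been given to both groups, and the cells were not cultured. The sources used here do not give the promoter that drives the recombination, the strain or the age. Nothing in the labels says that the samples came from separate animals, so the tests measure only the spread of these samples. Recovered reads came to 16.1 to 22.9 M in the FTbR2KO libraries and 21.2 to 28.7 M in the TbR2fl/fl libraries.

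Tgfbr2 itself went against the genotype label. It measured 60.0, 58.1, 56.9 and 57.8 FPKM in the libraries labelled FTbR2KO, against 49.6, 40.3, 46.7 and 45.4 FPKM in those labelled TbR2fl/fl, with no overlap (log2 fold change 0.35, SE 0.086, limma adjusted p = 0.571). A value over the whole gene cannot show the loss of an internal exon, so every direction below refers to the libraries as labelled. Fibroblast markers (Pdgfra, Col1a1, Col1a2, Dcn, Lum, Postn and Pdgfrb) summed to 7877 to 9473 FPKM in FTbR2KO and 9381 to 10187.5 FPKM in TbR2fl/fl libraries. Col1a1 (log2 fold change -0.35, SE 0.14) and Col1a2 (-0.30, SE 0.13) lay below 0 and the other 5 markers above 0. Markers of macrophages summed to 8.33 to 12.6 FPKM in FTbR2KO and 10.3 to 12.7 FPKM in TbR2fl/fl libraries, with 5 of 10 under 1 FPKM in every library and Ptprc at or under 0.0346 FPKM. The highest of them were Cd68 (2.01 to 7.15 FPKM over the 8 libraries), Lyz2 (2.45 to 5.60 FPKM) and Cd14 (0.780 to 2.14 FPKM). Adipocyte markers summed to 1.62 to 5.04 FPKM in FTbR2KO and 0.997 to 2.75 FPKM in TbR2fl/fl libraries, with Lep and Retn at 0 in all 8. Fabp4 was the highest of them (0.784 to 3.87 FPKM over the 8 libraries). Mean FPKM in FTbR2KO and TbR2fl/fl libraries was 0.635 and 0.246 for Pparg, 0.174 and 0.0145 for Plin1, and 0.0434 and 0.0438 for Adipoq. Cidec was at or under 0.0263 FPKM, and the groups overlapped for each of these markers. In sorted bulk cells, fewer cells of a type and less RNA per cell cannot be told apart.

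Cholesterol is built from acetyl-CoA through mevalonate and isoprenoid phosphates to squalene, which is closed into lanosterol and trimmed to cholesterol. SREBP2, from Srebf2, is a membrane-bound transcription factor for these enzymes. When membrane sterol is low, SCAP carries it from the endoplasmic reticulum to the Golgi to be cleaved, and when sterol is high the INSIG proteins hold SCAP back. SREBP1, from Srebf1, acts in the same way mainly on fatty acid genes and is itself induced by LXR, the oxysterol receptor that also induces the cholesterol exporter Abca1. Fatty acids are made from citrate through acetyl-CoA and malonyl-CoA, then elongated and desaturated. Infarct fibroblasts are known to divide and to become matrix-secreting myofibroblasts, with TGF-β as a main signal, and new membrane needs both sterols and fatty acids.

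SREBPs bind the sterol regulatory element of their target promoters, usually beside a CCAAT box bound by NF-Y. The windows below are shown because they differ in these letters: 3 mevalonate enzymes, 2 sterol regulators, the fatty acid synthase and the exporter, which was high in a library where many of the enzymes were lowest (TbR2fl/fl 5). They are RefSeq promoter sequences of build GRCm38.p6, written 5′ to 3′ on the gene's strand and ending just before the start of transcription. Insig1 and Srebf2 are shortened by 49 and 88 bases at that end, where the deposited annotation already places the gene. Capitals mark CCAAT, read as ATTGG where it lies on the other strand, and the sterol regulatory element core TCACNCCAC.
Hmgcs1, chr13:119690101-119690350, plus strand: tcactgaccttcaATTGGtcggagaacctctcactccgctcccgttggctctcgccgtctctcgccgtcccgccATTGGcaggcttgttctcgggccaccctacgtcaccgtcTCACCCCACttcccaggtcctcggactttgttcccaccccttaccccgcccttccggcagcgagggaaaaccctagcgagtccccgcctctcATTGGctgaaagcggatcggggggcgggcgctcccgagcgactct
Mvk, chr5:114444019-114444268, plus strand: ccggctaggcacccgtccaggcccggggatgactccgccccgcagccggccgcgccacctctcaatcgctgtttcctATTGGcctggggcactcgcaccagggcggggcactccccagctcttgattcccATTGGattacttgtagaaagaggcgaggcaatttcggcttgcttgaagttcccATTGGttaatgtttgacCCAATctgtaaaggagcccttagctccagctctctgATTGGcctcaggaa
Mvd, chr8:122443423-122443672, minus strand: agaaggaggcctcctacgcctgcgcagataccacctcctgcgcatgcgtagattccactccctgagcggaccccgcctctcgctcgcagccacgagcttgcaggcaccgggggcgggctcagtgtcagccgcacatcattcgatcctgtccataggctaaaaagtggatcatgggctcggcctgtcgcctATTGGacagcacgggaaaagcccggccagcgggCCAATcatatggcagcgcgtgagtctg
Insig1, chr5:28071162-28071362, plus strand: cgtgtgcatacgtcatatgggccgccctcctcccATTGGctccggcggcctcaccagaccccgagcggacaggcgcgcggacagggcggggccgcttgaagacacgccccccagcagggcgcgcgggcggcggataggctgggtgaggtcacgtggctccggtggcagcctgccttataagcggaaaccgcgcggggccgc
Srebf2, chr15:82147019-82147180, plus strand: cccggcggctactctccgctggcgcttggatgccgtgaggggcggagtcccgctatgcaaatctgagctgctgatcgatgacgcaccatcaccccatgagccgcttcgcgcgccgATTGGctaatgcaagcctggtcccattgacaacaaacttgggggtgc
Fasn, chr11:120824548-120824797, minus strand: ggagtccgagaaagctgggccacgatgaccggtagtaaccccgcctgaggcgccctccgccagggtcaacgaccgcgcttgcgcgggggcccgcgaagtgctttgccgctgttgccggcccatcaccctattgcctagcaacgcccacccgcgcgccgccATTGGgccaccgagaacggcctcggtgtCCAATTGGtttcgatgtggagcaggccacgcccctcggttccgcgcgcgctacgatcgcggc
Abca1, chr4:53159896-53160145, minus strand: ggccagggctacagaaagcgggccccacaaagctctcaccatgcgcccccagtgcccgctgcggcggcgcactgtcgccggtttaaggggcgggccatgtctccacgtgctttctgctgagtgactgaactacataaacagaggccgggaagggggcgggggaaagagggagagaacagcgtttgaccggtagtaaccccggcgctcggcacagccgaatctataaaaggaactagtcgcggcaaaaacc

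The RefSeq table held 39 promoters of 30 of the 37 genes, out of 32851 promoters of 27025 genes. In the 250 bases before the start, on either strand, CCAAT occurred in 24 of the 39 promoters (61.5%), against 33.8% of all promoters in the table. By gene, it occurred in 14 of the 15 mevalonate and sterol enzymes present and in 9 of the 15 other members present, against 37.5% of all genes. Mvk held 5 copies, of which the nearest began 14 bases before the start. Hmgcs1 held 3 copies, at 237, 176 and 45 bases before the start, and the TCACNCCAC core at 137 bases. That core was found in no other member's window and in 1.05% of all promoters. The E box CANNTG occurred in 26 of the 39 promoters (66.7%), against 66.2% of all. It shares bases with a CCAAT match in 2 of the windows shown, at 239 bases before the start in Hmgcs1 and at 61 bases in Fasn, where a CCAAT and an ATTGG also overlap each other. The Abca1 window held an E box at 147 bases and no CCAAT. A match is a description of the letters, not a bound site, and a missing match says only that the letters are not in this window. For genes whose deposited start lies further upstream, the searched window includes bases inside the gene.

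Between the genotypes, none of the 34 tested genes passed the threshold, an adjusted p under 0.05 in limma with Benjamini-Hochberg adjustment over all 11667 genes. Over all genes 2 passed, or 0.0171%. At an unadjusted p under 0.05 limma called 0 of the 34, against 8.61% of all genes, and voom on the recovered reads called 0 of the 34 with adjustment (0.0171% of all genes) and 0 without (8.27% of all genes). In 0 of the 37 members did the 4 FTbR2KO values lie wholly on one side of the 4 TbR2fl/fl values, as they did for 4.41% of all genes tested. The adjusted p of the members ran from 0.611 to 0.999. On the log2(FPKM + 1) scale, on which the change of low genes is understated, 25 of the 34 lay above 0 and 9 below, with a median log2 fold change of 0.12 (FTbR2KO minus TbR2fl/fl), against 48.8% of all genes above 0 and a median of -0.0045. That median rested on single libraries: it was -0.013 without TbR2fl/fl 5 and 0.0077 without FTbR2KO 2. Rescaling FPKM to a common total per library (TPM) moved the median of all genes to 0.13 and that of the members to 0.27.

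**Figure D1:**
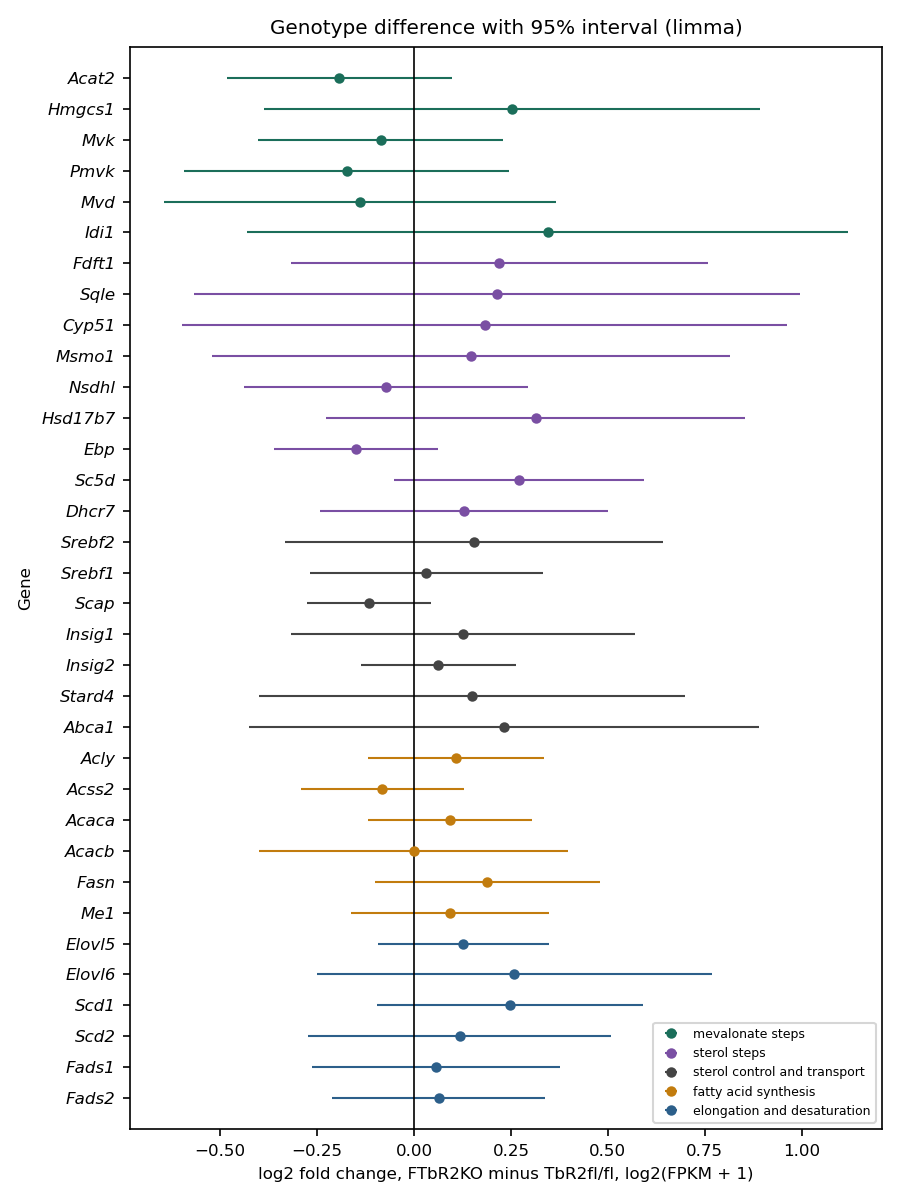
Log2 fold change of the 34 tested genes (x axis, FTbR2KO minus TbR2fl/fl, log2(FPKM + 1)) with its 95% interval from limma, coloured by role. Every interval crosses 0, and the points run from -0.19 for Acat2 to 0.34 for Idi1.

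For Hmgcs1 and Idi1, the most variable mevalonate enzymes, the spread within a genotype (SD of log2 values 0.487 for Hmgcs1 and 0.594 for Idi1) exceeded the difference between genotypes. Hmgcs1 (chr13:119690379-119708260, plus strand), which condenses acetyl-CoA with acetoacetyl-CoA into HMG-CoA, measured 12.3, 23.3, 14.0 and 14.4 FPKM in the FTbR2KO libraries, against 7.16, 15.7, 12.2 and 19.5 FPKM in the TbR2fl/fl libraries. FTbR2KO 2 and TbR2fl/fl 8 were the highest of their groups and TbR2fl/fl 5 the lowest of all. The means were 16.0 ± 4.95 FPKM in FTbR2KO and 13.7 ± 5.26 FPKM in TbR2fl/fl libraries (SD, n = 4 each), a log2 fold change of 0.25 (SE 0.28, 95% interval -0.39 to 0.89) and of -0.0024 without TbR2fl/fl 5. Idi1 (chr13:8885501-8892451, plus strand), the isopentenyl diphosphate isomerase, measured 2.60, 5.45, 2.93 and 3.03 FPKM in FTbR2KO and 0.816, 2.95, 2.12 and 5.33 FPKM in TbR2fl/fl libraries. The same 2 libraries were high, and the highest value was 6.68 times the lowest. Its log2 fold change of 0.34 had an SE of 0.34. Acat2, the cytosolic thiolase that starts the pathway, measured 2.67, 3.48, 2.86 and 2.00 FPKM in FTbR2KO and 2.89, 3.23, 3.02 and 3.92 FPKM in TbR2fl/fl libraries. FTbR2KO 4 was the lowest and TbR2fl/fl 8 the highest, and the log2 fold change was -0.19 (SE 0.13, 95% interval -0.48 to 0.098).

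The kinases and the decarboxylase that turn mevalonate into isopentenyl diphosphate spread less than Hmgcs1 and Idi1. Mvk, mevalonate kinase, ran from 4.56 to 5.77 FPKM in FTbR2KO and from 3.83 to 6.89 FPKM in TbR2fl/fl libraries. Pmvk, phosphomevalonate kinase, ran from 2.45 to 3.96 FPKM and Mvd, the decarboxylase, from 2.76 to 4.97 FPKM in FTbR2KO libraries. In TbR2fl/fl libraries Pmvk ran from 2.82 to 5.70 FPKM and Mvd from 3.19 to 6.61 FPKM. The groups overlapped for all of these genes. Of the 6 tested mevalonate genes, 2 lay above 0 and 4 below (median log2 fold change -0.11, and 0.023 after rescaling to TPM), with a median ratio of highest to lowest library of 2.36, against 1.50 over all genes tested. Reads of Hmgcs1 and Idi1 may include those of antisense or overlapping transcripts that cover 12.1% and 9.22% of their exons, since the sources used here do not say which strand was counted.

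**Figure D2:**
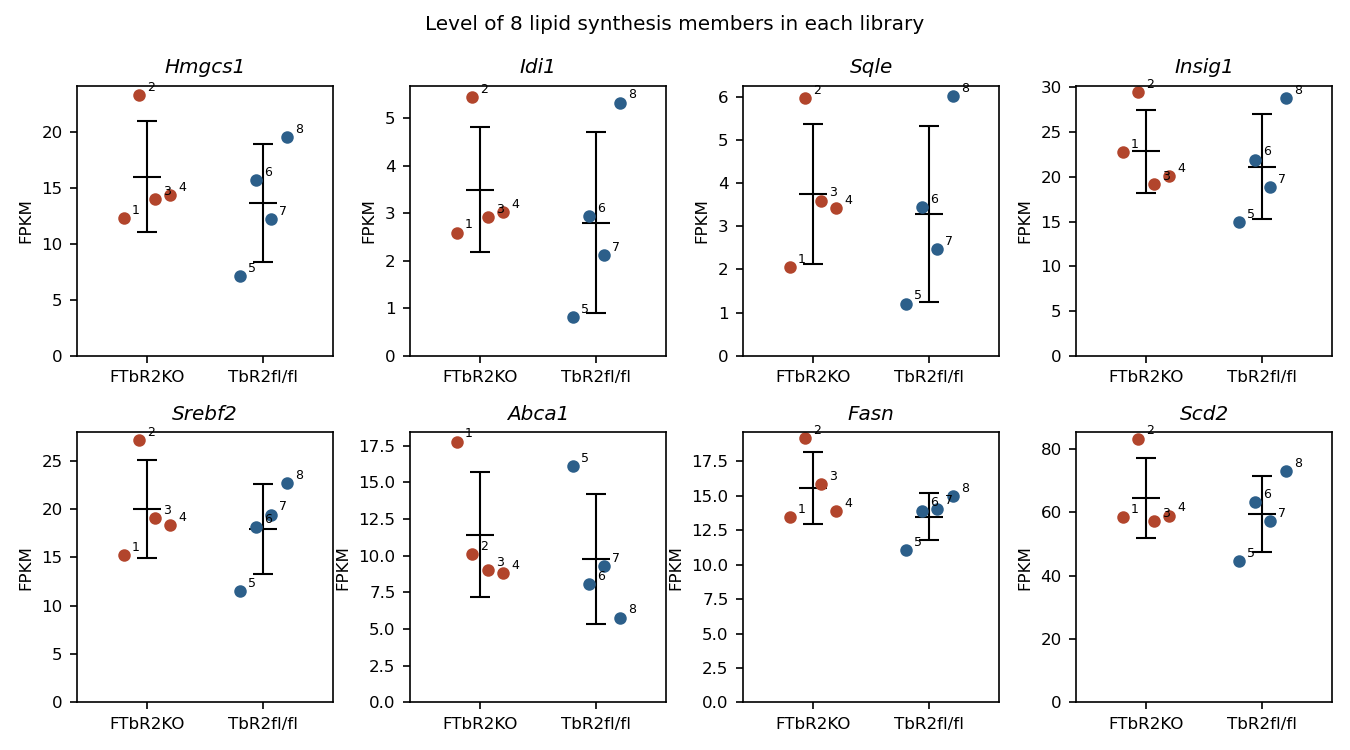
FPKM of 8 members in each library (y axis, from 0), FTbR2KO left and TbR2fl/fl right, with library numbers, the mean (long bar) and the SD (whiskers, n = 4). The groups overlap in every panel, FTbR2KO 2 is the highest of its group for 7 of the genes, and Abca1 is highest in FTbR2KO 1 (17.8) and TbR2fl/fl 5 (16.1).

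Sterol enzymes had the same library pattern. Sqle (chr15:59315077-59331192, plus strand), the squalene epoxidase, measured 2.06, 5.96, 3.59 and 3.42 FPKM in FTbR2KO, against 1.21, 3.45, 2.47 and 6.01 FPKM in TbR2fl/fl libraries. FTbR2KO 2 and TbR2fl/fl 8 were nearly equal and stood far above the other 6 libraries. The log2 fold change was 0.21 (SE 0.35, 95% interval -0.57 to 0.99) and -0.064 without TbR2fl/fl 5. Hsd17b7, a ketoreductase of sterol demethylation, measured 2.48, 4.21, 2.59 and 2.59 FPKM in FTbR2KO and 1.10, 2.04, 2.11 and 3.94 FPKM in TbR2fl/fl libraries. TbR2fl/fl 5 was the lowest library, and the log2 fold change was 0.31 (SE 0.24). Sc5d, the sterol desaturase near the end of the pathway, measured 5.19, 6.73, 4.22 and 4.29 FPKM in FTbR2KO and 3.63, 3.36, 4.27 and 4.87 FPKM in TbR2fl/fl libraries. It had the smallest p of the 34 genes, with a log2 fold change of 0.27 (SE 0.14, 95% interval -0.052 to 0.59) and a limma adjusted p of 0.611. Ebp, the sterol isomerase, was steadier, with 8.15, 9.12, 10.1 and 9.13 FPKM in FTbR2KO and 8.99, 10.2, 10.03 and 11.7 FPKM in TbR2fl/fl libraries. Its log2 fold change was -0.15 (SE 0.094) and 0.0016 after rescaling to TPM.

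Cyp51, the lanosterol demethylase, measured 6.75, 15.4, 9.21 and 9.04 FPKM in FTbR2KO, against 3.99, 10.6, 7.51 and 15.0 FPKM in TbR2fl/fl libraries. Msmo1, a methylsterol monooxygenase later in the pathway, measured 2.42, 5.80, 3.28 and 2.65 FPKM in FTbR2KO and 1.35, 3.47, 2.82 and 5.01 FPKM in TbR2fl/fl libraries. In both genes FTbR2KO 2 and TbR2fl/fl 8 were the highest libraries and TbR2fl/fl 5 the lowest. Fdft1, the squalene synthase, ran from 3.79 to 7.77 FPKM in FTbR2KO and from 2.70 to 6.55 FPKM in TbR2fl/fl libraries, with 18.3% of its exons shared with Ctsb on the other strand. Dhcr7, the last reductase of the pathway, ran from 3.10 to 4.82 FPKM in FTbR2KO and from 2.20 to 4.44 FPKM in TbR2fl/fl libraries, and Nsdhl, a sterol dehydrogenase, overlapped between the groups likewise. Of the 9 tested sterol genes 7 lay above 0 and 2 below (median 0.18), but 3 and 6 without TbR2fl/fl 5 (median -0.064).

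Of the SREBP genes and their escort, Srebf2 spread most between libraries and Scap least. Srebf2 (chr15:82147181-82205379, plus strand) measured 15.3, 27.1, 19.1 and 18.4 FPKM in FTbR2KO, against 11.5, 18.1, 19.4 and 22.6 FPKM in TbR2fl/fl libraries. The groups overlapped, and the log2 fold change was 0.16 (SE 0.22, 95% interval -0.33 to 0.64) and -0.031 without TbR2fl/fl 5. Srebf1 measured 16.4, 19.7, 18.0 and 18.1 FPKM in FTbR2KO and 13.2, 19.3, 17.9 and 20.9 FPKM in TbR2fl/fl libraries. TbR2fl/fl 5 was the lowest and TbR2fl/fl 8 the highest library, and the log2 fold change was 0.032 (SE 0.13), with -0.097 without TbR2fl/fl 5 and -0.0084 without FTbR2KO 2. A gene-level value of Srebf1 does not separate its isoforms. Scap measured 10.8, 9.91, 11.8 and 10.7 FPKM in FTbR2KO and 11.6, 11.9, 11.5 and 12.1 FPKM in TbR2fl/fl libraries. Only FTbR2KO 3 reached the TbR2fl/fl values. The log2 fold change was -0.12 (SE 0.071, 95% interval -0.28 to 0.044), with an exact two-sided permutation p of 0.0857 where 0.0286 is the smallest possible, and it was 0.038 after rescaling to TPM.

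Insig1 (chr5:28071363-28078662, plus strand), itself an SREBP target, measured 22.8, 29.4, 19.1 and 20.1 FPKM in FTbR2KO, against 15.0, 21.9, 18.9 and 28.8 FPKM in TbR2fl/fl libraries. FTbR2KO 2 and TbR2fl/fl 8 were again highest, and the log2 fold change was 0.13 (SE 0.20) and -0.018 without TbR2fl/fl 5. Insig2, its relative, measured 11.2, 10.1, 10.5 and 8.78 FPKM in FTbR2KO and 9.47, 9.15, 10.8 and 9.23 FPKM in TbR2fl/fl libraries. It did not share the high libraries, with a log2 fold change of 0.063 (SE 0.089). Stard4, a cytosolic sterol carrier, measured 2.58, 5.30, 2.84 and 3.93 FPKM in FTbR2KO and 2.05, 3.53, 2.34 and 5.11 FPKM in TbR2fl/fl libraries. Abca1 (chr4:53030787-53159895, minus strand), the cholesterol exporter, measured 17.8, 10.1, 9.01 and 8.84 FPKM in FTbR2KO, against 16.1, 8.07, 9.30 and 5.78 FPKM in TbR2fl/fl libraries. It was highest in FTbR2KO 1 and TbR2fl/fl 5 and lowest in TbR2fl/fl 8, and the log2 fold change was 0.23 (SE 0.29, 95% interval -0.42 to 0.89). The summed level of 6 epicardial markers, among them Msln and Wt1, was 37.9, 12.2, 24.3 and 4.04 FPKM in FTbR2KO and 23.5, 10.4, 0.694 and 14.8 FPKM in TbR2fl/fl libraries, also highest in FTbR2KO 1; its part in the Abca1 values was not tested. Of the 7 genes 6 lay above 0 (median 0.13), and 3 without TbR2fl/fl 5 (median -0.018).

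Fatty acid synthesis genes were the steadiest role group. Their median ratio of highest to lowest library was 1.44, against 1.50 over all genes tested. Acly, which splits citrate into cytosolic acetyl-CoA, measured 18.2, 21.4, 20.7 and 17.7 FPKM in FTbR2KO, against 16.0, 17.9, 17.4 and 20.8 FPKM in TbR2fl/fl libraries. Acaca, which carboxylates acetyl-CoA to malonyl-CoA, measured 2.76, 3.73, 3.30 and 3.32 FPKM in FTbR2KO and 2.79, 2.69, 3.12 and 3.43 FPKM in TbR2fl/fl libraries. The log2 fold changes were 0.11 (SE 0.10) for Acly and 0.093 (SE 0.094) for Acaca, and the groups overlapped in both. Fasn (chr11:120805846-120824547, minus strand), which makes palmitate, measured 13.4, 19.2, 15.8 and 13.9 FPKM in FTbR2KO, against 11.0, 13.9, 14.1 and 15.0 FPKM in TbR2fl/fl libraries. The means were 15.6 ± 2.61 FPKM in FTbR2KO and 13.5 ± 1.70 FPKM in TbR2fl/fl libraries (SD, n = 4 each), a log2 fold change of 0.19 (SE 0.13, 95% interval -0.10 to 0.48). Me1, a malic enzyme that supplies NADPH, ran from 10.9 to 13.3 FPKM in FTbR2KO and from 9.11 to 13.2 FPKM in TbR2fl/fl libraries. Acacb, the carboxylase at the mitochondrial membrane, did not follow Acaca: it measured 2.39, 1.58, 1.45 and 1.72 FPKM in FTbR2KO and 2.82, 1.48, 1.82 and 1.18 FPKM in TbR2fl/fl libraries, with its highest values in FTbR2KO 1 and TbR2fl/fl 5 as for Abca1. Acss2, which makes acetyl-CoA from acetate, lay between 1.06 and 1.50 FPKM in all 8 libraries.

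The desaturases were the most abundant members per length. Scd2, a stearoyl-CoA desaturase, averaged 62.0 FPKM over the 8 libraries, before Fads1 (40.2), Scd1 (35.5), Fads2 (35.1) and Insig1 (22.0). The libraries of Fads1, Scd1 and Fads2 overlapped, so their order was within the spread between samples. All 4 differ in coordinates between the deposited table and GENCODE M21. The deposited length is 1508 bases for Fads2, against 3295 in GENCODE, and 3456 for Fads1, against 4812, so their level per length depends on the gene model. Scd2 (chr19:44293676-44306864, plus strand) measured 58.4, 83.2, 57.3 and 58.9 FPKM in FTbR2KO, against 44.5, 63.2, 57.3 and 73.1 FPKM in TbR2fl/fl libraries. FTbR2KO 2 stood above all others, and the log2 fold change was 0.12 (SE 0.17), with -0.013 without TbR2fl/fl 5 and -0.0098 without FTbR2KO 2. Scd1, its relative with the same reaction, measured 42.6, 39.5, 36.0 and 35.1 FPKM in FTbR2KO, against 24.7, 28.4, 39.1 and 38.2 FPKM in TbR2fl/fl libraries. TbR2fl/fl 5 and 6 were the lowest, and the log2 fold change was 0.25 (SE 0.15, 95% interval -0.096 to 0.59). Elovl6, which extends palmitate, measured 1.66, 3.76, 3.19 and 1.98 FPKM in FTbR2KO and 1.19, 2.05, 1.87 and 3.03 FPKM in TbR2fl/fl libraries. Elovl5, which extends polyunsaturated fatty acids, measured 18.0, 20.2, 17.3 and 14.8 FPKM in FTbR2KO and 15.2, 16.3, 16.9 and 15.3 FPKM in TbR2fl/fl libraries. The groups overlapped in both, with a log2 fold change of 0.26 (SE 0.23) for Elovl6 and of 0.13 (SE 0.098) for Elovl5. Fads1 and Fads2, desaturases of polyunsaturated fatty acids, ran from 35.8 to 48.0 and from 29.6 to 40.3 FPKM in FTbR2KO libraries, against 32.4 to 48.5 and 28.9 to 38.3 FPKM in TbR2fl/fl libraries. All 6 genes lay above 0 (median 0.12), and 3 of 6 without TbR2fl/fl 5.

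Related members were also set against each other within each library, where the scaling of the library drops out. The FPKM ratio of Srebf1 to Srebf2 was 1.07, 0.725, 0.942 and 0.988 in FTbR2KO, against 1.15, 1.06, 0.921 and 0.925 in TbR2fl/fl libraries. Both genes were therefore at like levels per length in all libraries, with Srebf1 lowest relative to Srebf2 in FTbR2KO 2. Insig1 exceeded Insig2 in all 8 libraries, with ratios of 2.04, 2.92, 1.81 and 2.29 in FTbR2KO and 1.58, 2.40, 1.75 and 3.12 in TbR2fl/fl libraries. Scd1 stayed below Scd2, at ratios of 0.729, 0.474, 0.629 and 0.596 in FTbR2KO and 0.555, 0.450, 0.682 and 0.523 in TbR2fl/fl libraries. For Acacb over Acaca the ratios were 0.865, 0.423, 0.439 and 0.519 in FTbR2KO and 1.01, 0.551, 0.582 and 0.344 in TbR2fl/fl libraries, with TbR2fl/fl 5 highest and TbR2fl/fl 8 lowest. Fads1 over Fads2 was the steadiest pair, between 1.06 and 1.27 in all 8 libraries, a level that depends on the deposited lengths while the difference between genotypes does not. The difference in mean log2 ratio between FTbR2KO and TbR2fl/fl libraries was -0.13 for Srebf1 over Srebf2, 0.065 for Insig1 over Insig2, 0.14 for Scd1 over Scd2, -0.11 for Acacb over Acaca, -0.0064 for Fads1 over Fads2 and 0.24 for Elovl6 over Elovl5. Exact two-sided permutation p-values ran from 0.486 to 0.886, and each was 0.886 after Benjamini-Hochberg adjustment over the 6 pairs, so no pair passed. Leaving out TbR2fl/fl 5 gave -0.080 for Insig1 over Insig2 and 0.16 for Acacb over Acaca.

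**Figure D3:**
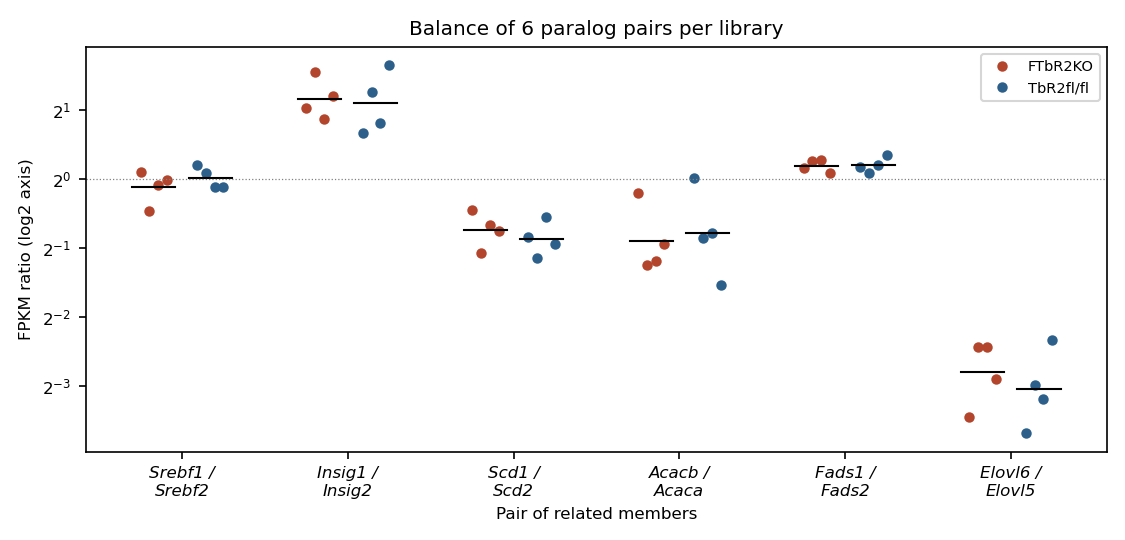
FPKM ratio of 6 pairs of related genes in each library (y axis, log2 scale), FTbR2KO left of TbR2fl/fl in each pair, with a bar at the group mean of the log2 ratio. The groups overlap in all 6 pairs; Insig1 lies above Insig2 in all 8 libraries and Elovl6 below Elovl5.

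The enzymes varied widely between libraries of the same genotype. TbR2fl/fl 5 was the lowest of the 8 libraries for 21 of the 34 tested genes, as for 20.1% of all genes tested. FTbR2KO 2 (19 genes) or TbR2fl/fl 8 (9 genes) was the highest for 28 of the 34, as for 31.4% of all genes. For the mevalonate and sterol enzymes one of these 2 libraries was the highest in 15 of 15, FTbR2KO 2 in 9 and TbR2fl/fl 8 in 6, and TbR2fl/fl 5 was the lowest in 9 of 15. These libraries were singled out after their values were seen, so the counts are descriptions. Summed over the 11 sterol genes, the level was 39.4, 67.6, 46.3 and 44.2 FPKM in FTbR2KO, against 30.0, 47.3, 42.2 and 65.0 FPKM in TbR2fl/fl libraries. Within a genotype, log2 values had a median SD of 0.407 for the sterol steps, 0.346 for the mevalonate steps, 0.155 for fatty acid synthesis and 0.156 for all genes tested. Without FTbR2KO 2 the median log2 fold change was -0.18 for the mevalonate steps, 0.010 for the sterol steps and 0.0036 for sterol control and transport. It was 0.053 for fatty acid synthesis and 0.033 for elongation and desaturation.

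**Figure D4:**
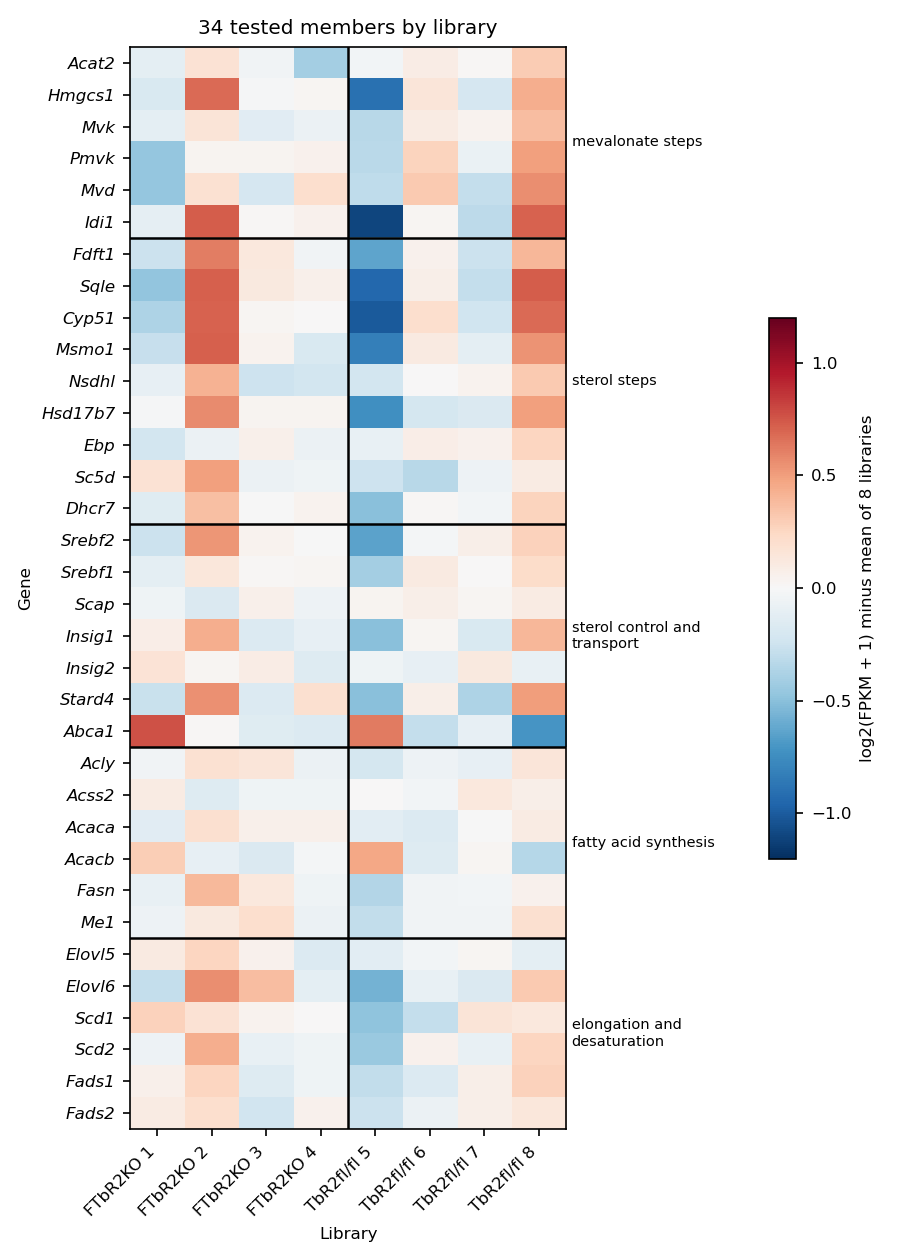
Log2(FPKM + 1) of the 34 tested genes in each library (columns, FTbR2KO left) as the difference from the gene's mean over the 8 libraries, grouped by role. FTbR2KO 2 and TbR2fl/fl 8 are high and TbR2fl/fl 5 low down most mevalonate and sterol genes, while Abca1 and Acacb are high in FTbR2KO 1 and TbR2fl/fl 5.

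Proliferation genes, Xist and markers of mural cells, which surround vessels, were set beside the library pattern. Summed over 8 proliferation genes, among them Mki67 and Top2a, the level was 9.87, 28.6, 12.3 and 21.9 FPKM in FTbR2KO, against 9.87, 22.5, 9.77 and 22.9 FPKM in TbR2fl/fl libraries. It was highest in FTbR2KO 2 and, among TbR2fl/fl libraries, in 8 and 6. For the summed sterol genes TbR2fl/fl 6 (47.3 FPKM) came next after FTbR2KO 2 and TbR2fl/fl 8, while FTbR2KO 4 had 44.2 FPKM. The 7 mevalonate genes summed to 27.6, 47.0, 31.9 and 33.2 FPKM in FTbR2KO and 20.8, 37.9, 29.5 and 48.2 FPKM in TbR2fl/fl libraries. There FTbR2KO 4 and TbR2fl/fl 6 were each the next highest of their group, as for proliferation. Xist, transcribed from the inactive X chromosome, was near 0 in FTbR2KO 4 (0.0561 FPKM) and TbR2fl/fl 8 (0.0215 FPKM) and between 30.7 and 49.7 FPKM in the other libraries. FTbR2KO 4 was the highest library for 0 of the 34 tested genes, against 6.14% of all genes tested. TbR2fl/fl 8 was the highest for 9 of the 34, against 16.3% of all genes tested. With Xist as a covariate limma called 0 of the 34 genes with adjustment (0.0257% of all genes) and 0 without (9.49% of all genes). The 6 mural markers summed to 50.8, 90.8, 84.0 and 66.1 FPKM in FTbR2KO and 61.6, 71.0, 55.5 and 79.7 FPKM in TbR2fl/fl libraries. Their sum was highest in FTbR2KO 2 and, among TbR2fl/fl libraries, in 8, but lowest in FTbR2KO 1. Single markers differed: Mcam was highest in FTbR2KO 2 (19.1 FPKM), Abcc9 in FTbR2KO 1 (7.68 FPKM) and Kcnj8 in FTbR2KO 3 (3.91 FPKM). The part of cell division, of mural cells and of sex in the library pattern was not tested.

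In 10 relations between genes over the 8 libraries, adjusted together by Benjamini-Hochberg, the sterol genes varied together. Hmgcs1 and Idi1 had a Pearson r of 0.982 (exact permutation p = 0.000124, adjusted 0.000868) and a Spearman rho of 0.976 (exact permutation p = 0.000397). For Hmgcs1 and Stard4 r was 0.911 (exact permutation p = 0.000174, adjusted 0.000868) and rho 0.976 (exact permutation p = 0.000397). For Hmgcs1 and Sqle r was 0.964 (exact permutation p = 0.000570, adjusted 0.00190) and rho 0.881 (exact permutation p = 0.00724). For Hmgcs1 and Insig1 r was 0.923 (exact permutation p = 0.00193, adjusted 0.00387) and rho 0.857 (exact permutation p = 0.0107). All points share their library, its depth and its scaling. Without FTbR2KO 2 and TbR2fl/fl 5, the libraries farthest from the median of Hmgcs1, r was 0.944 for Idi1 and 0.936 for Stard4 (exact permutation, adjusted p = 0.0347 each), and 0.955 for Sqle (adjusted 0.0509) and 0.774 for Insig1 (adjusted 0.147). On deviations from the genotype means r was between 0.909 and 0.981 for these 4 pairs.

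The fatty acid and regulator pairs depended more on those 2 libraries. Hmgcs1 and Srebf2 had an r of 0.950 (exact permutation p = 0.00156, adjusted 0.00387) and a rho of 0.667 (exact permutation p = 0.0831), and r was 0.728 (adjusted p = 0.200, exact permutation) without the 2 libraries. Hmgcs1 and Fasn had an r of 0.892 (exact permutation p = 0.00965, adjusted 0.0161) and a rho of 0.667 (exact permutation p = 0.0831), and r was 0.394 without them. Fasn and Acaca had an r of 0.787 (exact permutation p = 0.0135, adjusted 0.0192) and a rho of 0.667 (exact permutation p = 0.0831), and r was 0.648 (adjusted p = 0.200, exact permutation) without them. None of the 3 pairs passed without these 2 libraries, and of the 3 only Hmgcs1 and Fasn had a low r there. On deviations from the genotype means, r was 0.948 for Hmgcs1 and Srebf2, 0.898 for Hmgcs1 and Fasn and 0.744 for Fasn and Acaca. The permutation p over all 8 libraries, adjusted, was 0.00136 for the Srebf2 pair, 0.00591 for the Fasn pair and 0.0383 for the Acaca pair. The 8 deviations were permuted across both genotypes although each genotype was centred on its own mean. These p-values are therefore not exact and may be too small. Fasn and Srebf1 (r 0.756, adjusted 0.0603; rho 0.690) and Fasn and Scd1 (r 0.612, adjusted 0.122; rho 0.381) did not pass by exact permutation, and without the 2 libraries r was 0.409 for Fasn and Srebf1 and -0.047 for Fasn and Scd1. Hmgcs1 and Abca1 had a negative r of -0.648 (exact permutation p = 0.0811, adjusted 0.0901) and a rho of -0.548 (exact permutation p = 0.171), past no threshold. On deviations from the genotype means that r was -0.781 (adjusted p = 0.0258 by the same inexact permutation) and rho was -0.619 (adjusted p = 0.128, likewise). Without FTbR2KO 2 and TbR2fl/fl 5, r was -0.794 (adjusted p = 0.147, exact permutation) and rho -0.943 (adjusted p = 0.0556, exact permutation). Without FTbR2KO 1 and TbR2fl/fl 5, the pair with the highest Abca1 and chosen after seeing the data, r was -0.184. The negative relation thus depended on which libraries were left out.

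**Figure D5:**
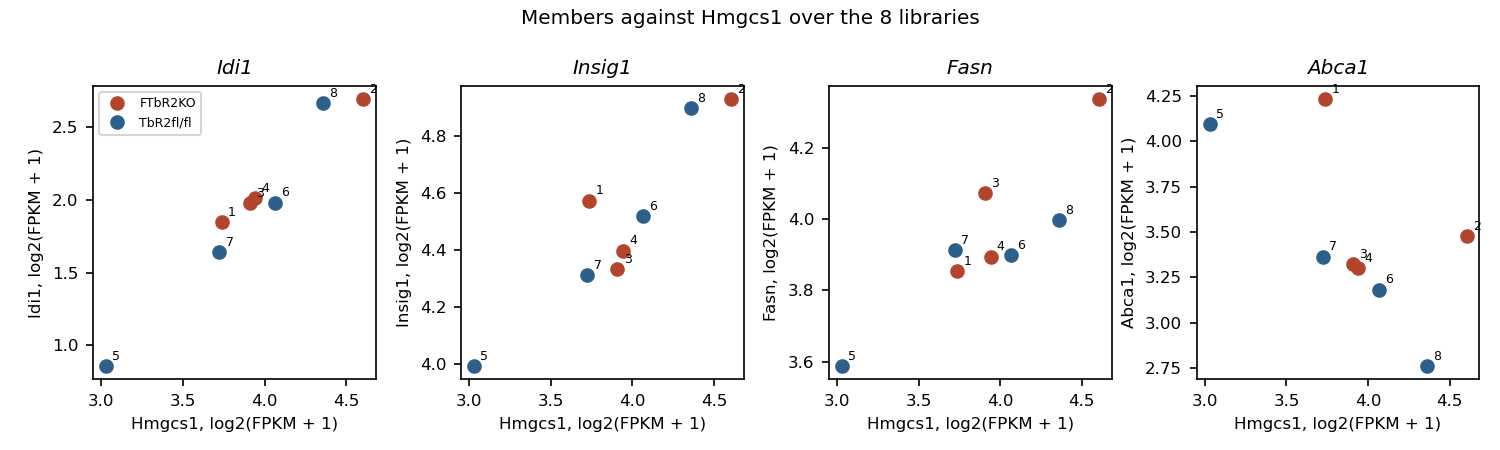
Log2(FPKM + 1) of Idi1, Insig1, Fasn and Abca1 (y axes) against that of Hmgcs1 (x axis) in the 8 libraries, FTbR2KO in red and TbR2fl/fl in blue, with library numbers. Idi1 follows Hmgcs1 over all libraries (r 0.982), Fasn mainly through FTbR2KO 2 and TbR2fl/fl 5 (r 0.892, and 0.394 without them), and the r of Abca1 is negative (-0.648, adjusted 0.0901 by exact permutation).

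No gene of the wider pathway passed either. Of 66 further genes of sterol synthesis, SREBP processing, oxysterol response and transport, and fatty acid supply, 53 were tested and 0 passed the limma adjusted threshold, while 2 had an unadjusted p under 0.05, and voom gave the same counts of 0 and 2. These 2 of 53 compare with 8.61% of all genes in limma and 8.27% in voom, so the wider pathway gave no more calls than the background. Altogether 29 lay above 0 and 24 below, with a median log2 fold change of 0.017. Npc2, which binds cholesterol in the lysosome, measured 41.9, 36.9, 37.3 and 43.4 FPKM in FTbR2KO, against 44.8, 49.4, 48.7 and 48.3 FPKM in TbR2fl/fl libraries. The groups did not overlap, and the log2 fold change was -0.26 (SE 0.086, limma adjusted p = 0.571). Acsl4, which activates arachidonic acid, measured 10.1, 11.0, 11.9 and 9.04 FPKM in FTbR2KO, against 8.20, 9.41, 7.39 and 9.33 FPKM in TbR2fl/fl libraries. TbR2fl/fl 6 and 8 lay above FTbR2KO 4, and the log2 fold change was 0.27 (SE 0.10, limma adjusted p = 0.571). Ch25h, which makes an oxysterol from cholesterol, measured 8.75, 13.9, 16.5 and 12.3 FPKM in FTbR2KO and 2.90, 15.0, 7.71 and 8.87 FPKM in TbR2fl/fl libraries. TbR2fl/fl 5 was again the lowest library, and the log2 fold change was 0.66 (SE 0.37). The log2 fold changes were -0.21 for Fdx1, 0.062 for Ggps1, 0.20 for Erlin1, 0.11 for Rnf139, -0.14 for Pgrmc1, 0.34 for Cyp7b1, -0.21 for Slc25a1 and 0.33 for Gpam, all with overlapping groups.

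The 3 members below the level for testing were Fdps, Lss and Tm7sf2. Fdps, the farnesyl diphosphate synthase, ran from 0.0936 to 0.232 FPKM in FTbR2KO and from 0.0813 to 0.328 FPKM in TbR2fl/fl libraries, 135 reads in all. It shares 26.7% of its exon length with Gm43738 on the same strand, so its level is uncertain. Gm43738 itself had 1 read over the 8 libraries, and the part of the overlap in the low level of Fdps was not tested. Lss, the lanosterol synthase, ran from 0.849 to 1.18 FPKM in FTbR2KO and from 0.641 to 1.40 FPKM in TbR2fl/fl libraries, with TbR2fl/fl 8 the highest and TbR2fl/fl 5 the lowest. Tm7sf2, a sterol reductase, ran from 0.461 to 0.814 FPKM in FTbR2KO and from 0.582 to 0.874 FPKM in TbR2fl/fl libraries. It shares 12.1% of its exons with Vps51 on the same strand.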

How the data were processed

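Poly(A) RNA of FACS-sorted PDGFRα-positive cells, extracted with Trizol, was made into NEBNext Ultra libraries, per the labels' protocols. The gene values are FPKM as the authors deposited them, and gene names, coordinates and lengths are those of the deposited table. Builds mm10 and GRCm38.p6 and the tools HTSeq 0.6.1, Cufflinks 2.1.1, TopHat2 2.0 and CASAVA are listed, per the submitters' processing notes, without their roles. In every library FPKM times length gave whole reads for 100% of the nonzero values within 0.01, so depth was recovered, and voom on those reads called 2 genes.

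Groups were taken from the genotype label. Genes that reached 1 FPKM in 4 or more of the 8 libraries were tested on log2(FPKM + 1) with limma 3.58.1 (R 4.3.3; trended empirical Bayes, no covariate, two-sided, Benjamini-Hochberg over all genes tested, threshold 0.05). Single values and ratios were compared by exact two-sided permutation, whose smallest p for 4 against 4 is 0.0286, with scipy 1.17.1 in Python 3.11.15. The limma test was tried on simulated data. Members and lists were chosen with earlier results of these data known, so no list was tested. Fold changes are given for the 10 members with the smallest p, for Srebf1, Srebf2, Scap, Insig1, Insig2, Hmgcs1, Sqle, Idi1, Fasn, Acaca, Scd1, Scd2 and Abca1 by name, and for up to 3 genes per further list, of which 1 gene is not reported here. Alternatives were a pseudocount of 0.1, other filters, median-of-ratios, quantile and TPM scaling, voom, array weights, an Xist covariate and leaving out libraries. Gene coordinates are GRCm38; 32 of the 37 members have the same coordinates in GENCODE M21, and Scd1, Scd2, Fads1, Fads2 and Tm7sf2 do not.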

Additional observations from a re-analysis of the deposited data

Results flagged for a closer look

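In 3 of 70 groups of 4 values (the 34 tested genes and Lss in each genotype, on the log2 scale), 1 library stood apart from the other libraries of its genotype by Dixon's criterion (the gap to the nearest value relative to the range, at the 95% level); chance alone flags about 1 in 20 groups. Pmvk measured 2.45 FPKM in FTbR2KO 1, against 3.87 to 3.96 FPKM in the other FTbR2KO libraries. Hsd17b7 measured 4.21 FPKM in FTbR2KO 2, against 2.48 to 2.59 FPKM in the others. Scd2 measured 83.2 FPKM in FTbR2KO 2, against 57.3 to 58.9 FPKM in the others.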

How the results depend on the processing

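No member passed limma's adjusted threshold under any alternative, and the lowest adjusted p of a named member was 0.267, with array weights. At an unadjusted p under 0.05, limma called 4 of 34 members on TPM (13% of all genes), 1 without FTbR2KO 2 (4.25% of all genes), 1 without FTbR2KO 4 (13%), 2 without TbR2fl/fl 8 (6.28%) and 0 under each of the others (4.63% to 18.9%). Of 353 alternative values of the named log2 fold changes, 13 changed sign. On TPM, Ebp was 0.0016 and Scap 0.038; with array weights Srebf1 was -0.043; leaving out FTbR2KO 1 and TbR2fl/fl 5 together gave -0.054 for Srebf1 and -0.023 for Insig1. Leaving out 1 library at a time gave -0.013 to 0.17 for the median of the tested members, -0.0024 to 0.44 for Hmgcs1, -0.064 to 0.49 for Sqle, -0.031 to 0.28 for Srebf2, -0.097 to 0.11 for Srebf1, -0.018 to 0.28 for Insig1 and -0.013 to 0.22 for Scd2. The mean log2 ratio then differed between FTbR2KO and TbR2fl/fl by -0.080 to 0.25 for Insig1 over Insig2, -0.35 to 0.16 for Acacb over Acaca and -0.042 to 0.041 for Fads1 over Fads2. Without the 2 libraries farthest from the median, r was 0.955 for Hmgcs1 and Sqle, 0.774 for Hmgcs1 and Insig1, 0.394 for Hmgcs1 and Fasn, 0.728 for Hmgcs1 and Srebf2, 0.648 for Fasn and Acaca, and -0.047 for Fasn and Scd1, none of which passed. On deviations from the genotype means, Hmgcs1 and Abca1 (r -0.781) and Fasn and Srebf1 (r 0.816) did pass, by a permutation that is not exact after centring. By rho, Fasn and Srebf1 (0.857) passed there and Hmgcs1 and Abca1 (-0.619) did not. Leaving out FTbR2KO 1 and TbR2fl/fl 5, chosen after seeing the data, left r at 0.750 for Hmgcs1 and Fasn, 0.875 for Hmgcs1 and Srebf2 and 0.735 for Fasn and Acaca, below the threshold. The cause of these changes was not tested. No paired analysis was run, because the labels state no pairing and the groups share no replicate numbers. The labels also carry a code for each sample, and some codes of the 2 genotypes are close in number. What the codes stand for is not stated, and their part in the library pattern was not tested. Some tested members, such as Pmvk (1247 reads over the 8 libraries), Acat2 (1421) and Mvd (1519), rest on fewer reads than the desaturases, such as Fads2 (9636). The 4 samples per genotype leave wide intervals for the sterol enzymes.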
